A study of Rattus norvegicus with 3 samples.

Results

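Transcripts of the constitutive proteasome were measured in the rat iPS F65 line, of induced pluripotent stem (iPS) cells, and set against those of adult rat cells. The members were all non-control probes whose gene name on the array begins with Psma, Psmb, Psmc, Psmd, Psmf or Psmg and a number, without the immunoproteasome genes Psmb8, Psmb9 and Psmb10. The name rule found 42 of 41012 probes, for 35 of the 21805 genes tested. Of these 35 genes, 14 encode subunits of the core particle, 16 encode subunits of the regulatory particle and 3 encode assembly chaperones. The other 2, called name-only matches below, were on no list of subunits or chaperones. They were Psmc3ip, a meiotic recombination factor that is no proteasome subunit, and Psma3l, a copy-like name that RefSeq lists under Psma3. Whether the Psma3l probe measured Psma3 transcripts was not tested.

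Total RNA of untreated iPS F65 cells (3 samples, Cy3) and of mix1 (Cy5) was hybridised together on 2-colour Agilent arrays, 1 array for each iPS sample. Mix1 is a mixture of 2 cultured adult rat cell types, primary ear fibroblasts and bone marrow cells, also untreated, and it counts as 1 control sample. The iPS cells, a single line, were grown on irradiated mouse embryonic fibroblasts. The 3 arrays lay on 1 slide with the same dye orientation, so cell type and dye cannot be told apart, and nothing in the labels places the 3 samples in separate cultures, so p-values measure only the spread between these samples. Every value below is a log2 ratio of processed signals, iPS F65 over mix1, unless another quantity is named. A gene was called higher or lower at a Benjamini-Hochberg adjusted p under 0.05 in limma, over all tested probes, and a difference of at least 2-fold.

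The arrays held 43379 gene spots each, and the well-above-background flag was set for 57.1% to 61.2% of them for iPS F65 and 58.3% to 62.1% for mix1. Among markers of pluripotent cells, 5 of 7 tested gene names were called higher in iPS F65, with Sox2 at 3.14 and Dnmt3b at 4.22, while Lin28a was at -0.17. All 10 fibroblast markers were called lower in iPS F65, with Vim at -4.36 and Postn, not well above background in iPS F65, at least 482-fold lower, as were 7 of 8 myeloid markers. In such bulk samples, fewer cells of a type and less RNA per cell cannot be told apart. Of all genes, 95.5% had an adjusted p under 0.05, so the 2-fold limit set most calls. The median of the genes tested was 0.25 rather than 0. It was -0.02 after centring each array on the median of its tested probes. With genes not well above background also counted, 35561 in all, the median without centring was -0.02. The all-gene median below is that of the 21805 genes tested.

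The proteasome degrades proteins tagged with ubiquitin. Its core particle is a barrel of alpha rings, which gate the entry, around beta rings, which hold the proteolytic sites of Psmb5, Psmb6 and Psmb7. The regulatory particle caps the barrel: its base holds a ring of ATPases (Psmc genes) that unfold substrates, and its lid removes ubiquitin. Proteasome genes are transcribed in nearly all cells, and mammalian cells raise them together through the factor Nfe2l1 (Nrf1) when proteolysis is impaired.

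The sequences of 8 probes are shown because the results turn on them: the member with the highest ratio (Psmd6), the core subunit with the highest ratio (Psma1), the Psma3 and Psma3l pair, and probes of 1 gene that gave different ratios (Psmd1, Psmd7). They are 60-base probes as deposited, 5′ to 3′, in lower case throughout since no stretch was singled out, with positions on build rn3, which the file headers name. Where the interval exceeds 60 bases, the probe's match to the genome is split, as it is for a probe across an exon junction.
Psmd6, chr15:12660117-12660290, plus strand: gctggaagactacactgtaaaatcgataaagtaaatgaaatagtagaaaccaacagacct
Psma1, chr1:172374167-172375638, minus strand: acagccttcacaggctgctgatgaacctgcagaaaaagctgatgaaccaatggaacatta
Psma3, chr6:93106404-93107522, plus strand: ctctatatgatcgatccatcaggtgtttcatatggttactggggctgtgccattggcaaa
Psma3l, chr10:64690225-64690284, minus strand: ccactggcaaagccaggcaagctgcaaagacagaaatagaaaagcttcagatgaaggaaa
Psmd1, 5′ probe, chr9:85055667-85058043, plus strand: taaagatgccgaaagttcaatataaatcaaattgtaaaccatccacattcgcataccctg
Psmd1, 3′ probe, chr9:85066272-85066331, plus strand: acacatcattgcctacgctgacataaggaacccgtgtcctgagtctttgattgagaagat
Psmd7, 5′ probe, chr19:37461057-37461674, minus strand: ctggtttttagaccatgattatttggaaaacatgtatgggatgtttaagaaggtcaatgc
Psmd7, middle probe, chr19:37457873-37457932, minus strand: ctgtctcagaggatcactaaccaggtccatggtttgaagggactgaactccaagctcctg

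Proteasome transcripts differed little between the cell types. All 42 member probes were well above background in both channels on every array. Of the 35 genes, 5 were called higher in iPS F65 (14.3%, against 30.9% of all genes tested) and 0 were called lower (against 24.5%). The 5 were Psmd6, Psma1, Psmc6 and the name-only matches Psma3l and Psmc3ip. The other 30 members lay within 2-fold, which is 85.7% of them, against 44.5% of all genes tested. Limma's adjusted p was under 0.05 for 33 of the 35 members, a share close to the 95.5% of all genes tested. The exceptions were Psmb2 (adjusted p = 0.058) and Psmc1 (adjusted p = 0.72). The SD of the gene means was 0.61 over the members and 2.23 over all genes. Over the 3 arrays, the SD of a member probe lay between 0.005 and 0.054.

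The members were mostly above 0 and less clearly above the typical gene. Their median was 0.44, with 30 of 35 above 0. Against the all-gene median of 0.25, 21 members were higher and 14 lower. With the arrays centred on the median, the members' median was 0.16, 3 members were called higher (Psmd6, Psma3l and Psmc3ip, against 24.5% of all genes) and 0 lower (against 28.4%). With normexp background correction and loess it was 0.18, with 4 called higher (the same 3 and Psmc6, against 18.3%) and 0 lower (against 26.1%). The calls of Psmd6, Psma3l and Psmc3ip thus held under the 3 scalings, while those of Psma1 and Psmc6 did not.

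**Figure D1:**
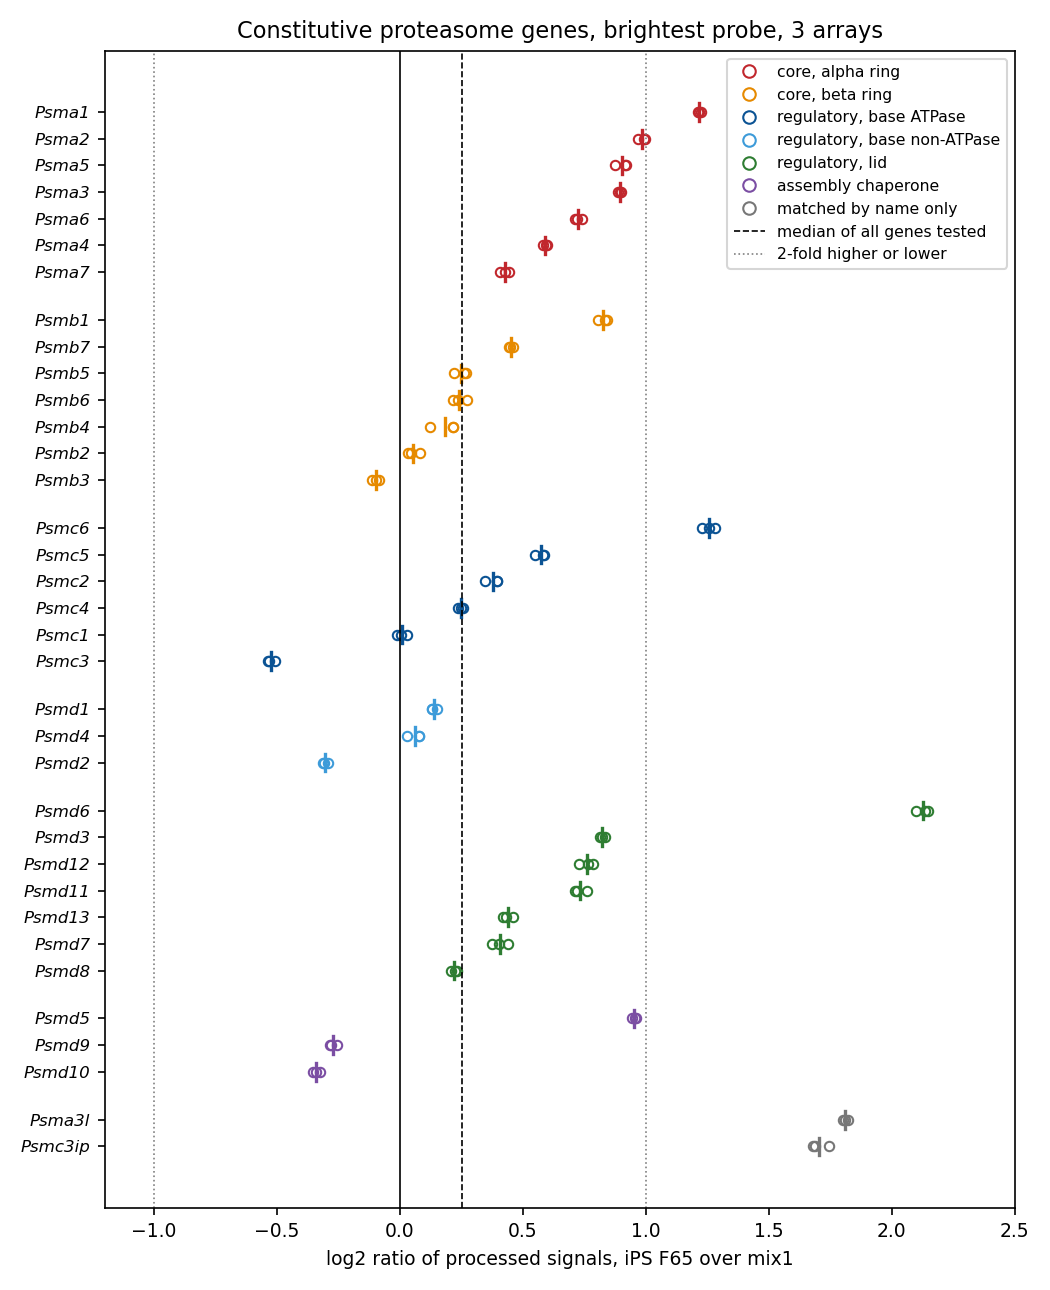
Log2 ratio of processed signals, iPS F65 over mix1, for the brightest probe of each of the 35 members, grouped by role. Circles are the 3 arrays and bars their mean, the dashed line is the all-gene median of 0.25 and the dotted lines are 2-fold differences; only 5 genes pass the right-hand line and 0 the left.

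The alpha ring was the subunit group of the core with the higher ratios. All 7 alpha genes were above 0 and above the all-gene median, and they stayed above 0 when the arrays were centred. Psma1, the only core subunit called higher, had processed signals of 32922, 39827 and 39347 in iPS F65, against 14188, 17039 and 16998 in mix1, so the samples did not overlap. Its ratio was 1.21, 1.22 and 1.21 on the 3 arrays, a 2.32-fold difference (adjusted p = 9.11e-06, limma), and it fell just under 2-fold when centred, at 0.94. Psma2 stood at 0.99, Psma5 at 0.90, Psma3 at 0.89, Psma6 at 0.72 and Psma4 at 0.59, none of them reaching 2-fold. Psma7, with the lowest alpha ratio, had signals of 78694, 95779 and 95369 in iPS F65, against 59419, 71167 and 70163 in mix1. Its mean of 0.43 ± 0.02 (SD, n = 3) is a 1.34-fold difference (adjusted p = 0.000118, limma).

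The beta ring lay around the all-gene median. Psmb1, a structural subunit with no proteolytic site, had the highest beta ratio, at 0.83, 0.81 and 0.84. The lowest was that of Psmb3, also structural, at -0.12, -0.10 and -0.09, with signals of 38340, 46724 and 47204 in iPS F65, against 41517, 49946 and 50106 in mix1. Psmb4 was at 0.18 and Psmb2 at 0.05. On centred arrays 5 of the 7 beta genes were below 0.

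The catalytic subunits differed by less than 1.5-fold. Psmb5, which carries the chymotrypsin-like site, had signals of 68008, 81819 and 82961 in iPS F65, against 58469, 68332 and 68860 in mix1. Its mean ratio was 0.25 ± 0.03 (SD, n = 3), close to the all-gene median of 0.25. Psmb6, which carries the caspase-like site, had 22896, 25821 and 26470 in iPS F65, against 19706, 21920 and 21916 in mix1, a mean ratio of 0.24 ± 0.03 (SD, n = 3). Psmb7, which carries the trypsin-like site, had 37696, 43293 and 42948 in iPS F65, against 27695, 31736 and 31248 in mix1, a mean ratio of 0.45 ± 0.01 (SD, n = 3). In each case every iPS signal was above the mix1 signal of the same array, by 1.18-fold to 1.37-fold on average. Centring brought Psmb5 and Psmb6 to -0.02 and -0.03, while Psmb7 stayed above 0 at 0.18.

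Of the inducible subunits that replace these 3 in the immunoproteasome, 2 differed far more. Psmb8, which takes the place of Psmb5, had signals of 26, 39 and 39 in iPS F65, not well above background, against 3161, 3480 and 3576 in mix1. It was at least 51.9-fold lower in iPS F65. Psmb9, which takes the place of Psmb6, was at least 97.5-fold lower, with 35, 49 and 39 in iPS F65, against 5919, 6810 and 6508 in mix1. These bounds set the mix1 level against the lowest iPS level above background on each array, or the probe's own where higher. Psmb10, which takes the place of Psmb7, was higher instead, at 0.96, 0.97 and 0.94, a 1.94-fold difference that missed the 2-fold limit.

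**Figure D2:**
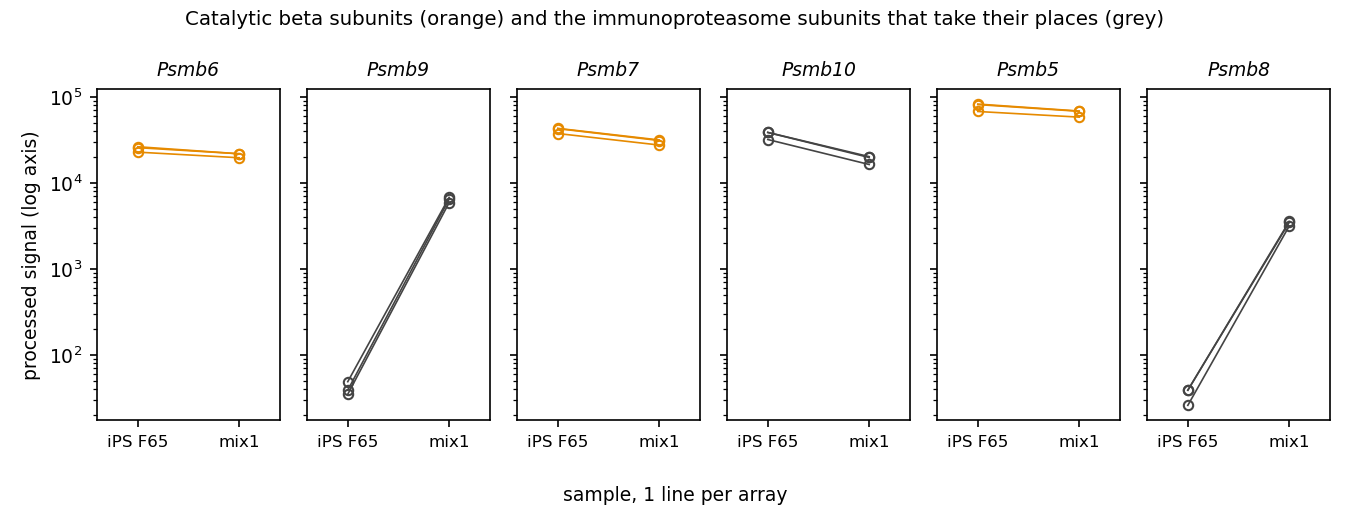
Processed signals (log axis) of the catalytic beta subunits and of the inducible subunits that replace them, iPS F65 left and mix1 right in each panel, 1 line per array. Psmb5, Psmb6 and Psmb7 are slightly higher in iPS F65 and Psmb10 is 1.94-fold higher. Psmb8 and Psmb9 lie between 26 and 49 in iPS F65, against 3161 to 6810 in mix1. Levels of different probes are not comparable.

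In the regulatory particle, the 6 base ATPases were the most spread group apart from the lid. Psmc6 (Rpt4) was called higher at 1.25, 1.23 and 1.28, with signals of 36491, 43430 and 42892 in iPS F65, against 15288, 18539 and 17647 in mix1 (2.39-fold, adjusted p = 1.31e-05, limma). It was just under 2-fold when centred, at 0.98. Psmc3 (Rpt5) had the lowest ratio of any member, at -0.53, -0.54 and -0.51. Its signals were 32259, 37777 and 38734 in iPS F65, against 46708, 54809 and 55078 in mix1, a separation that did not reach 2-fold (adjusted p = 6.07e-05, limma). Psmc5 was at 0.57, Psmc2 at 0.38 and Psmc4 at 0.25. Psmc1 was at 0.01 ± 0.02 (SD, n = 3), with ratios on both sides of 0.

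By their brightest probes, the base non-ATPase subunits were all below the all-gene median. Psmd1 (Rpn2), a scaffold of the base, was at 0.13, 0.15 and 0.13 by that probe, but above the all-gene median by its 5′ probe (1.13) and by the mean of its probes (0.63). Psmd2 (Rpn1), the other large scaffold and a docking site for shuttle proteins, was at -0.31, -0.29 and -0.31. Psmd4 (Rpn10), a ubiquitin receptor, lay between them at 0.06. By these probes all 3 were below 0 when centred.

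The lid held the widest range. Psmd6 (Rpn7) had the highest ratio of any member, 2.13, 2.15 and 2.10, with signals of 8935, 11807 and 11671 in iPS F65, against 2034, 2668 and 2725 in mix1. The 4.37-fold difference (adjusted p = 6.66e-06, limma) stayed above 2-fold under the 3 scalings, at 1.85 centred and 1.67 after loess. Psmd6 rests on 1 probe, the dimmest of any subunit, so how far its ratio depends on the probe could not be seen. Psmd8 (Rpn12) had the lowest lid ratio, at 0.23, 0.21 and 0.22. Between them were the structural lid subunits Psmd3 at 0.82, Psmd12 at 0.76, Psmd11 at 0.73 and Psmd13 at 0.44, and Psmd7 at 0.40. Psmd14, the deubiquitinase of the lid, was not analysed here.

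Assembly chaperones of the base did not move one way. Psmd5 was at 0.95, 0.94 and 0.96, with 18098, 20103 and 20056 in iPS F65, against 9341, 10464 and 10300 in mix1. Psmd10, known as gankyrin, was at -0.33, -0.34 and -0.36, and Psmd9 at -0.27. None reached 2-fold.

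The name-only matches were high. Psma3l was at 1.82, 1.80 and 1.81, with signals of 12808, 15932 and 15342 in iPS F65, against 3623, 4575 and 4380 in mix1. The array places this probe on chromosome 10 as an unbroken 60-base interval, whereas the Psma3 probe, at 0.89, is split over 1119 bases on chromosome 6. RefSeq names 2 pseudogenes after Psma3, and 34 after 14 of the members in all. Which transcripts the Psma3l probe measured was not tested. Psmc3ip was at 1.68, 1.74 and 1.69, with 5214, 5911 and 6118 in iPS F65, against 1628, 1764 and 1900 in mix1. Among the 30 listed subunits, 3 were called higher, against 30.9% of all genes tested.

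The particles were set against each other by the median of their genes on each array, a description with no p. The core had 0.52, 0.52 and 0.52, against 0.36, 0.42 and 0.40 for the regulatory particle, a difference of 0.13 ± 0.03 (SD, n = 3). This difference depended on which probe stood for a gene: it was 0.01 with the mean of each gene's probes and -0.09 with the probe nearest the 5′ end, which is a choice made after the data were seen. Of 14 core genes 9 were above the all-gene median, as were 9 of 16 regulatory genes.

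Differences within each particle were larger than that between them. The alpha ring's medians were 0.89, 0.89 and 0.88, against 0.22, 0.24 and 0.27 for the beta ring, a difference of 0.65 ± 0.04 (SD, n = 3) that was 0.66 after loess and 0.67 by 5′ probes. The lid's medians were 0.71, 0.76 and 0.72, against 0.13, 0.15 and 0.13 for the base, a difference of 0.59 ± 0.02 (SD, n = 3). That was 0.58 after loess, and 0.38 both by 5′ probes and by the mean of each gene's probes. Each of these differences exceeded its spread over the arrays, which does not measure the spread between genes. The gene ratios overlapped, from 0.43 to 1.22 in the alpha ring and from -0.10 to 0.83 in the beta ring. They also overlapped between the lid, from 0.22 to 2.13, and the base, from -0.53 to 1.25.

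**Figure D3:**
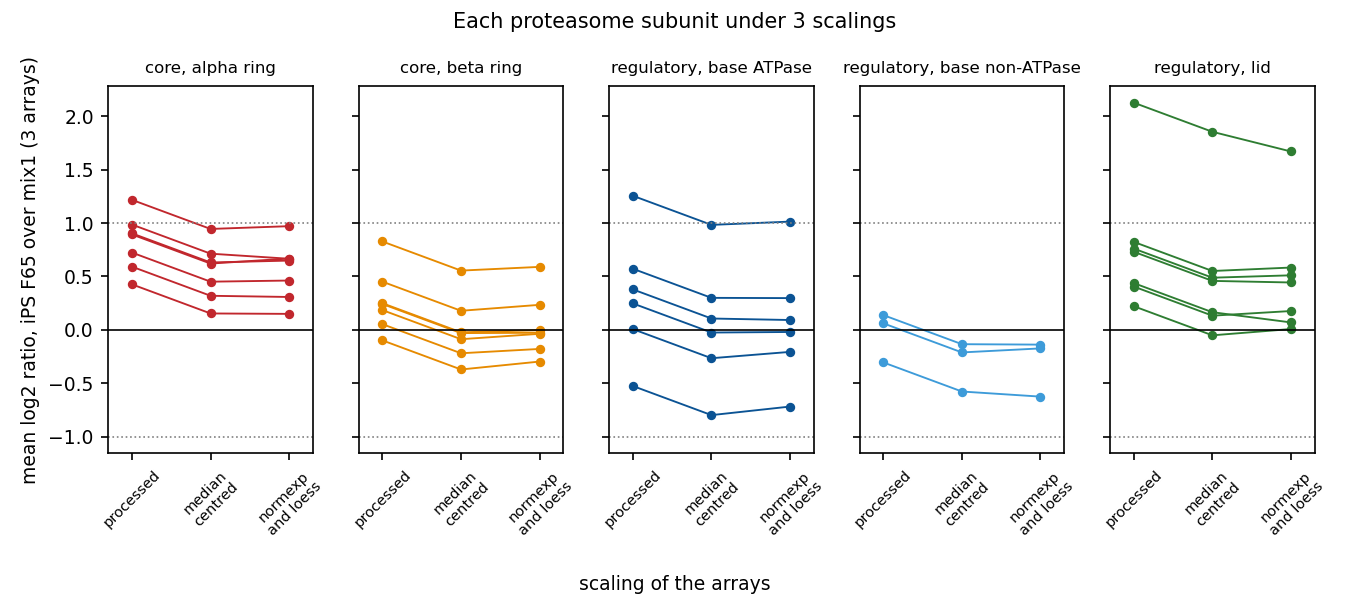
Mean log2 ratio over 3 arrays, iPS F65 over mix1, of each of the 30 subunits as processed signals, after centring on the median, and after normexp and loess, 1 line per gene. The lines shift down, which carries several beta and base genes, and the lid gene Psmd8 when centred, across 0 but leaves the alpha genes above it. Centring subtracts a constant from each array, so it keeps the order of the groups by construction. After normexp and loess the group medians are also in the same order.

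The 6 members with several probes showed how far a gene's ratio depended on the probe. In all 6 the probe nearest the 5′ end had a higher ratio than the probe nearest the 3′ end, on every array. For Psmd1, shown above, the 5′ probe had signals of 30278, 36765 and 34759 in iPS F65, against 13753, 16835 and 15942 in mix1, a ratio of 1.13 ± 0.01 (SD, n = 3). The 3′ probe had 77875, 94705 and 93805 in iPS F65, against 71076, 85285 and 85699 in mix1, a ratio of 0.14 ± 0.01 (SD, n = 3). So 1 probe of Psmd1 passed 2-fold and the other did not.

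Psmd7 (Rpn8), the partner of the lid's deubiquitinase, had the widest disagreement. Its 5′ probe was at 1.64, 1.65 and 1.65, with 10514, 12291 and 12166 in iPS F65, against 3372, 3912 and 3887 in mix1. Its middle probe, the brightest, was at 0.37, 0.44 and 0.40, and its 3′ probe at 0.80, 0.82 and 0.80. Only the 5′ probe passed 2-fold.

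The remaining pairs differed less. The 5′ and 3′ probes stood at 1.19 and 0.72 for Psma6, 1.25 and 0.82 for Psmc6, 0.65 and 0.25 for Psmc4, and -0.09 and -0.31 for Psmd2. As processed signals, no gene had probes on opposite sides of 0, but on centred arrays Psmd1 (0.86 and -0.13) and Psmc4 (0.38 and -0.03) did. With the 5′ probe in place of the brightest, 8 of 35 members would be called higher, and with the 3′ probe 4. Calls of all genes were not counted under these probe rules, so these counts have no share to be set against.

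Across the array, the 5′ probe had the higher ratio in 57.0% of the 3084 genes with several tested probes, with a median difference of 0.12 and quartiles of -0.32 and 0.57. The members' differences lay between 0.22 and 0.99, with a median of 0.45. The 5′ probe was also the dimmer in 5 of the 6 members and in 76.6% of the 3084 genes. The part of brightness and of position along the transcript in these differences was not tested.

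**Figure D4:**
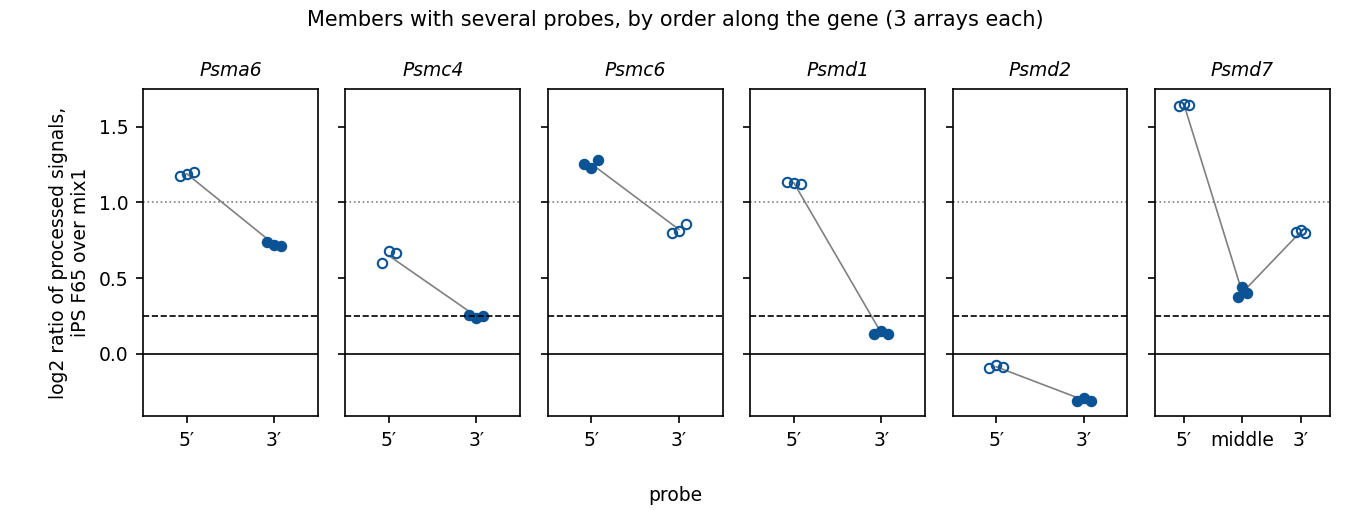
Log2 ratio, iPS F65 over mix1, of each probe of the 6 members with several probes, ordered 5′ to 3′ along the gene, with 3 arrays per probe and the brightest probe filled. The 5′ probe is above the 3′ probe in each panel, by 0.99 in Psmd1 and 0.22 in Psmd2; the dashed line is the all-gene median and the dotted line 2-fold.

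Brightness moved with the ratio among the members. Over the 30 subunits Pearson's r between mean log2 signal and log2 ratio was -0.57 (Spearman -0.42), and over all 21805 genes it was 0.04. These points share arrays and labelling, and genes are not independent replicates. The part of brightness in the ratios was not tested. The members were bright: 28 of 35 were in the brightest 10% of all genes. In that bin 22.0% of genes were called higher and 16.0% lower, with a median of 0.20, and 62.0% were neither. The 85.7% of members that were neither is a share of all 35, including those outside the bin.

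**Figure D5:**
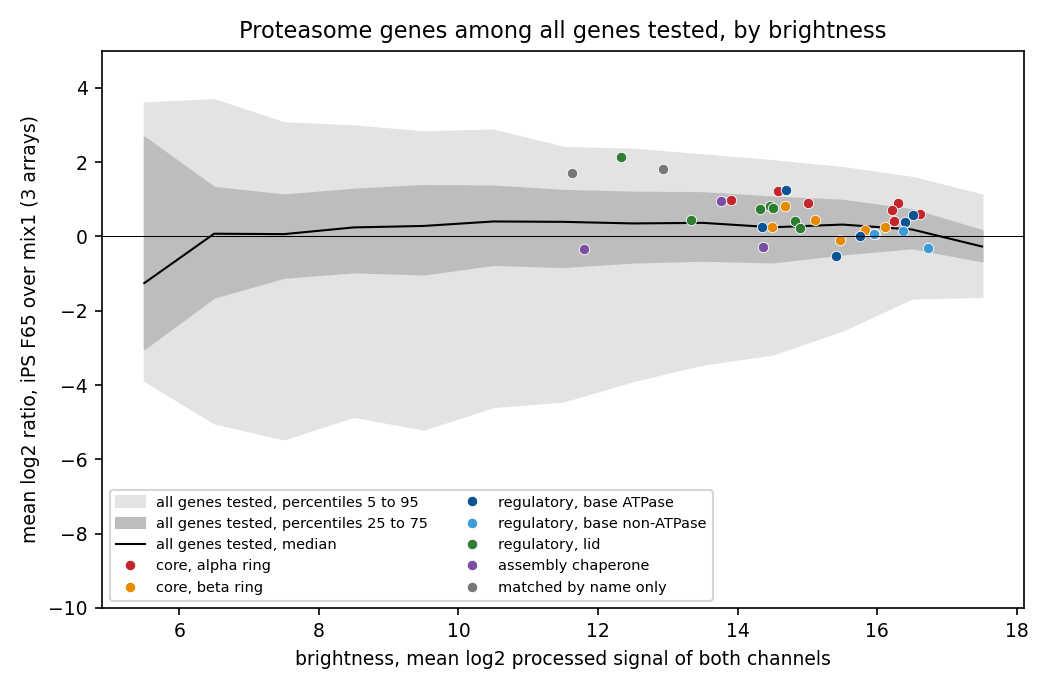
Mean log2 ratio, iPS F65 over mix1, against brightness (mean log2 processed signal of both channels) for the 35 members, over the percentile bands of all genes tested in brightness bins. The 28 members in the brightest 10% lie at the right, inside or near the middle band, and Psmd6, Psma3l and Psmc3ip are dimmer and above it.

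Promoters of the members were read from RefSeq (build GRCr8), 250 bases before to 50 after the start, for the 31 members with an entry. Psmd6, the member with the highest ratio, had no entry, nor had Psma7, Psmd12 and Psma3l. The motif counts and ratios below leave these genes out. Motifs were searched on both strands: TGACNNNGC, the core of the antioxidant response element that Nrf factors bind, its longer form TGACTCAGC, and CCAAT, which NF-Y binds. The core motif was in 7 of 31 members (22.6%), against 12.1% of all 33469 promoters, and CCAAT in 17 (54.8%), against 37.5%. The longer form was in 0 of 31, against 0.415% of all promoters. Any match of the longer form is also a match of the core. The 6 subunits with the core motif had a median ratio of 0.25, between 0.05 and 0.89, and the 21 without it one of 0.44, between -0.53 and 1.25. The 14 with CCAAT had a median of 0.44, between -0.53 and 1.22, and the 13 without it one of 0.25, between -0.31 and 1.25, so the ranges overlapped for both motifs.

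The promoters of the subunits with the highest and the lowest ratio among those holding the core motif are shown, with CCAAT and core matches of either strand in capitals. In Psmb2 a CCAAT and a core match share 1 base.
Psma3, ratio 0.89, chr6:95219499-95219798, plus strand: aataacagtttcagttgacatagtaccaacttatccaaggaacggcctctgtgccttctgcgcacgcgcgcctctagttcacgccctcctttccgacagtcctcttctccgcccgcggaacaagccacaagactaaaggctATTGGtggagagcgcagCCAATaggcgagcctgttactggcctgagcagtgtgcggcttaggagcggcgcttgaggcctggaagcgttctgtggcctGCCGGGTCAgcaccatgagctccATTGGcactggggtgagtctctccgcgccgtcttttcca
Psmb2, ratio 0.05, chr5:144254808-144255107, plus strand: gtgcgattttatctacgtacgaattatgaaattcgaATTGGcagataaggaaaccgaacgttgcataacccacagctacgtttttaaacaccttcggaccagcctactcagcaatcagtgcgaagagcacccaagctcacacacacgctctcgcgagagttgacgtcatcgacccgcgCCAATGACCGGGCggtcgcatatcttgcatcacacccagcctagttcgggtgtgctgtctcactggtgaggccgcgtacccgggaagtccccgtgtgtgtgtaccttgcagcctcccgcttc

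Among the factors and their partners, 3 of 8 tested genes were called. Nfe2l1, the factor known for proteasome genes, was called lower in iPS F65 at -1.72, -1.71 and -1.73 (3.30-fold, adjusted p = 6.74e-06, limma), and so was its small partner Mafk at -1.09. Nfyb, a subunit of NF-Y, was called higher at 1.20, but fell under 2-fold when centred, at 0.93. The list thus had 1 gene called higher (against 30.9% of all genes) and 2 called lower (against 24.5%), with a median of -0.41.

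Of 7 tested genes on a list of proteasome-associated factors, 2 were called higher (against 30.9% of all genes) and 1 lower (against 24.5%). These shares were not above those of all genes, and the median was 0.60. Uchl5, a deubiquitinase, was called higher at 2.32, 2.37 and 2.34 (5.08-fold), and so was Adrm1 (Rpn13), the ubiquitin receptor that anchors it, at 1.76, 1.75 and 1.76 (3.38-fold). Hspb1, a small heat shock protein, was called lower at -6.52. Pomp, the chaperone of core assembly, was at -0.40 and Usp14, another deubiquitinase, at 0.60.

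Among the alternative caps of the core, Psme2 (PA28 beta) was called lower at -1.97, -1.93 and -1.97 (3.88-fold). Its partner Psme1 was at -0.65, -0.29 and -0.28, the array of replicate 1 standing apart. Psme3 was at 0.16 and Psme4 (PA200) at 0.81, while the dimmer probe of Psme4 was called higher at 1.46. By brightest probes 1 of 4 was called lower (against 24.5% of all genes) and 0 higher (against 30.9%).

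Upstream of the proteasome, ubiquitin genes and activating enzymes went both ways. Ubb, which encodes ubiquitin, was called lower in iPS F65 at -1.93, and its other probe was called lower too, at -1.11. Rps27a, which encodes ubiquitin fused to a ribosomal protein, was called higher at 1.62. Uba6, a ubiquitin-activating enzyme, was called higher at 2.66, or 1.62 after normexp and loess, but its mix1 signal was well above background on 1 of the 3 arrays. The main such enzyme, Uba1, was at 0.26. Of 9 shuttle factors and segregase subunits 0 were called either way (against 30.9% of all genes higher and 24.5% lower), with Vcp at 0.03 and Ubqln1 the highest at 0.98.

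The cytosolic chaperonin, which folds actin and tubulin, is a further complex present in all cells and was described in the same way. Of its 8 genes 7 were called higher in iPS F65, against the 30.9% of all genes, with a median of 1.65, or 1.38 when centred. The lowest was Cct3 at 0.79 and the highest Cct6a at 2.52. Of the 30 proteasome subunits 3 were called, with a median of 0.43.

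Several proteasome genes carry older names on the array and fell outside the name rule. The core assembly chaperones Psmg1, Psmg2 and Psmg3 were at 0.67, 1.18 and 0.35, and only Psmg2 was called higher, though not when centred (0.91). Psma8, the testis form of an alpha subunit, and Psmb11, the thymic beta subunit, lacked the well-above-background flag on every array, for iPS F65 and for mix1.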

How the data were processed

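Each iPS F65 sample (Cy3) shared a 2-colour Agilent array with mix1 (Cy5), per the labels. Agilent Feature Extraction 9.5.3.1 made the deposited scanner files, per the file headers. Their processed intensity values are those left after background subtraction and dye normalization by the authors' software, and the mean and background intensities carry no normalization. Probes carry rn3 positions, per the file headers. The deposited log2 values of the series equalled log2 of green over red processed signals within 3.1e-06, with medians of 0.003, -0.005 and -0.06, which fixes their direction as iPS F65 over mix1. The authors' log10 ratio column was not used.

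Control spots and 204 to 213 outlier spots per array were left out, no spot was saturated, and replicate spots of a probe were averaged. Tested probes were those well above background on all 3 arrays in 1 channel at least (25801 of 41012). Log2 ratios of processed signals were fitted in R 4.3.3 by limma 3.58.1 (lmFit, eBayes), tested against 0 and adjusted over all probes, which leaves out the control's own spread. A gene takes its brightest probe. With all arrays on 1 slide and in 1 scan there was no batch to fit. The members and lists were chosen with earlier results of these data known. Of the 35 member names, 34 match the RefSeq symbol of the same name. Named genes are the highest and lowest ratio of each subgroup, every called member, Psmb5 to Psmb10 and members whose probes disagree. From the other lists some called and uncalled genes are named, not always the most extreme, and none from the myeloid list. Alternatives were median centring, normexp (offset 50) with loess, other filters and probes, the deposited values, a 1.5-fold limit and leaving out each replicate. The fit was tested on simulated data. Every comparison rests on 3 arrays, whose number limits the precision. Some genes of the ubiquitin list are not reported here.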

Additional observations from a re-analysis of the deposited data

How the results depend on the processing

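The 5 members called higher and 0 called lower were unchanged under 8 alternatives: backgrounds as deposited in normexp and loess, both filters on dim probes, the deposited values, the mean of a gene's probes, and without each replicate in turn (5 in each case). The deposited values are the processed ratios themselves, and all 42 member probes were well above background in both channels. So the deposited values and both filters kept the members' ratios by construction and say little about stability. The count was 3 with median centring, 4 with normexp and loess (uneven backgrounds replaced) and with loess alone, and 15 at a 1.5-fold limit. In settings chosen after seeing the data, it was 8 with the probe nearest the 5′ end and 4 with that nearest the 3′ end. Calls of all genes were counted for processed signals, median centring, and normexp and loess with uneven backgrounds replaced. In every other setting, the 1.5-fold limit and these probe rules included, the counts describe the members alone. The setting with backgrounds as deposited also differed in its adjusted p values: 6702 of the 21805 genes met the 0.05 limit. As processed signals, 20834 met it. Called lower remained 0 of 35 in limma under all settings run, while 5 members were below 0 at an adjusted or unadjusted p under 0.05: Psmb3, Psmc3, Psmd2, Psmd9 and Psmd10. The core median of 0.52 was 0.25 centred, 0.27 with normexp and loess, 0.47 with backgrounds as deposited and 0.27 with loess alone. The regulatory median of 0.39 was 0.12, 0.081, 0.33 and 0.082 in the same order, 0.51 with the mean of probes and 0.61 with 5′ probes. The core minus regulatory difference of 0.13 was 0.19 with normexp and loess (uneven backgrounds replaced) and with loess alone, 0.14 with backgrounds as deposited, 0.011 with the mean of probes and -0.089 with 5′ probes. Without each replicate it ranged between 0.11 and 0.14, the core median between 0.52 and 0.52, and the regulatory median between 0.38 and 0.41. Direction turned for 9 genes when centred: Psmc1 (-0.27), Psmc4 (-0.0255), Psmd1 (-0.13), Psmd4 (-0.21), Psmb2 (-0.22), Psmb4 (-0.088), Psmb5 (-0.0235), Psmb6 (-0.031) and Psmd8 (-0.052). With normexp and loess 8 turned: Psmc1 (-0.21), Psmc4 (-0.020), Psmd1 (-0.14), Psmd4 (-0.17), Psmb2 (-0.18), Psmb4 (-0.037), Psmb5 (-0.0032) and Psmb6 (-0.028). With loess and no background subtraction they stood at -0.21, -0.019, -0.14, -0.17, -0.18, -0.036, -0.0025 and -0.026 in that order. Psmc1, at 0.0064, was at -0.0039 without replicate 1 and at 0.015 without replicate 3. The centred values follow from shifting each array by the median of its tested probes, and the cause of the others was not tested. The ratio of each array already pairs its iPS F65 and mix1 channels, and with 1 group of samples no further replicate block could be fitted. Signal over background limited none of the members.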
